A study of Caenorhabditis elegans with 4 samples.

Results

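Isolated polymerase peaks are the peaks of the series-level AMA-1 list that stand alone on the chromosome, with at least 5000 bp free of other peaks on each side. They were chosen by gap: the distance to the previous and to the next peak of that list had to be 5000 bp or more, and the first and last peak of each chromosome were left out. The rule kept 746 of 18518 peaks, or 4.03%. The other 17772 peaks of the list had a neighbour within 5000 bp on at least 1 side or lay first or last on their chromosome. Positions in the series-level list chose the members, so their positions, gaps, scores and widths are given as descriptions without a test.

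The study profiled AMA-1 by chromatin immunoprecipitation and sequencing in Caenorhabditis elegans embryos of mixed stages. The sample titles also carry the letters EE, whose meaning the labels do not give. All samples were wild type (strain N2), came from a mixed population of males and hermaphrodites and were kept at 20 °C. Embryos were fixed in 2% formaldehyde for 30 min, and AMA-1 was precipitated with an affinity-purified rabbit polyclonal antibody. There were 2 AMA-1 ChIP samples, each with its own peak list, and 2 input samples, whose values were not analysed here. The replicate lists were called with MACS and the series-level list with MACS v2. Which libraries and thresholds went into the series-level list is not given in the sources used here. The series-level list may share libraries with the replicate lists, so overlap with them is not independent of the rule. Whether the ChIP replicates are separate cultures is not in the labels, and their spread may be technical only. Whole embryos of mixed stages were pooled, so fewer cells with bound polymerase and less polymerase per cell cannot be told apart.

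AMA-1 is the large, catalytic subunit of RNA polymerase II, which transcribes protein-coding genes and many small nuclear, spliced leader and other non-coding RNAs. ChIP of this subunit recovers DNA under polymerase at promoters and under polymerase moving through genes. The worm genome is compact: genes lie close together, and some are arranged in operons whose joint transcript is separated into messages by trans-splicing. Coordinates are those of WormBase WS220. No gene is named and no sequence is shown for any peak, because neither a genome nor an annotation of that build was used. For the same reason the embryo label was not checked against marker genes.

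Many isolated peaks were more remote than the rule required. Their smaller gap had a median of 9404 bp (quartiles 6531 and 16033 bp), while among the other peaks it was 236 bp (117 and 554 bp). Of the 746, 337 had at least 10000 bp free on both sides, 122 at least 20000 bp and 22 at least 50000 bp. Just inside the limit were a peak on I at 14399601 to 14401192, with a smaller gap of 5003 bp, and a pair on V at 18962312 to 18962625 and 18967645 to 18967790, 5019 bp from each other. Just outside it were 3 peaks on I, with smaller gaps of 4990 bp at 10458130 to 10458424 and of 4986 bp at 5754481 to 5755194 and at 5760181 to 5760528. The scores were 5.59, 3.25 and 3.10 inside and 2.60, 4.28 and 9.39 outside, so the 2 sides of the limit overlapped. A further 4768 peaks had a gap of this size on 1 side only, and 12992 had none.

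Isolated peaks were narrower than the others and scored slightly lower. The score was given to each peak by the authors' caller, on a scale that no header states, and is compared only within a list. Isolated peaks had a median score of 7.14 (quartiles 4.20 and 13.2) and the other peaks one of 8.11 (4.61 and 17.2). The ratio of medians was 0.880 over all peaks and 0.902 ± 0.145 (SD, n = 6 chromosomes). It was 0.662 on III, 0.825 on I and 0.883 on V, close to 1 on IV (0.989) and X (0.998), and 1.06 on II. The ratio over all peaks turned to 1.04 when peaks closer than 500 bp were merged before the rule was applied. Widths differed more: isolated peaks had a median of 302 bp (197 and 506 bp), against 411 bp (238 and 776 bp). That ratio was 0.735 overall and 0.741 ± 0.074 over the chromosomes, and it lay between 0.633 on III and 0.827 on X.

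**Figure D1:**
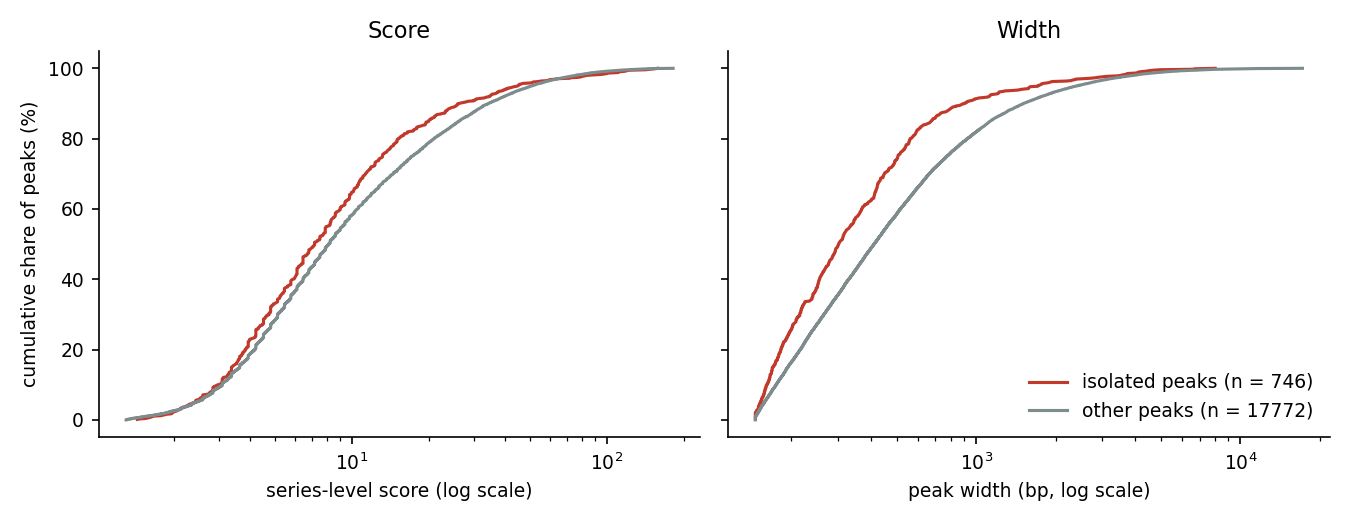
Cumulative share of peaks by series-level score (left) and by peak width in bp (right), on log axes, for the 746 isolated and the 17772 other peaks. The isolated curve lies to the left in width, with medians of 302 and 411 bp, and the score curves lie close together, with medians of 7.14 and 8.11.

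The score difference was not the same along the range. Scores at or above the list's upper quartile, 16.97, were held by 134 isolated peaks, 17.96% (Wilson interval 15.4 to 20.9), against 25.5% of the other peaks (24.9 to 26.2). Scores in the top 1% of the list, 95.1 or more, were held by 14 isolated peaks, 1.88% (1.12 to 3.13), against 0.968% (0.834 to 1.12). The isolated set thus held a smaller share of peaks above the upper quartile, while in the top 1% its share was the larger one, with intervals that just touch. A width of 1000 bp or more was reached by 65 isolated peaks, 8.71% (6.89 to 10.95), against 18.1% (17.5 to 18.7). Within the isolated set score and width went together, with a Spearman rho of 0.70 over the 746 peaks, against 0.75 among the others. Score and smaller gap were nearly unrelated in the isolated set, with a rho of 0.03, against -0.14 among the others. The rule gives the sets different ranges of gap. These correlations are over peaks of 1 list and describe it only.

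Under the 5000 bp rule, most isolated peaks had no counterpart in either replicate list. A peak was counted as found when at least 1 bp overlapped a replicate peak. In replicate 1, 89 of the 746 isolated peaks were found, 11.9% (Wilson interval 9.80 to 14.5), against 40.5% of the other peaks (39.8 to 41.2) and 39.4% of the whole list. In replicate 2, 207 were found, 27.7% (24.7 to 31.1), against 70.2% (69.5 to 70.8) and 68.5% of the whole list. Both replicates held 76 of them, 10.2% (8.22 to 12.6), against 34.1% of the others and 33.2% of the list. At least 1 replicate held 220, 29.5% (26.3 to 32.9), against 76.5% (75.9 to 77.1) and 74.6% of the list. The remaining 526, 70.5%, were in neither. The lists differ in caller (MACS v2 for the series level, MACS for the replicates) and in peak size. Series-level peaks had a median width of 406 bp, while replicate 1 peaks had 3286.5 bp and replicate 2 peaks 3311 bp. The lowest listed score was 1.3 for the series level, 50.03 for replicate 1 and 50.07 for replicate 2, on scales that may differ. Absence from both replicate lists therefore cannot be read as a failure to replicate. The share found depended on the definition: it was 49.7% when peaks closer than 500 bp were merged first, and 71.7% when the rule was applied to peaks at or above the median score alone.

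The difference in the share found in at least 1 replicate was -47.0 percentage points (95% interval -50.3 to -43.6), isolated minus other. It was -28.6 points in replicate 1 (-30.8 to -26.0) and -42.4 in replicate 2 (-45.6 to -39.0), a mean of -35.5 ± 9.78 (SD, n = 2). It was negative on 6 of 6 chromosomes, from -55.7 on III to -41.9 on II. No test was made, since the lists may share libraries and peaks are not independent. The intervals cover counting error only. The difference was -15.5 points when peaks closer than 500 bp were merged first and -18.4 when the rule was applied to peaks at or above the median score alone. Without replicate 2 it was -28.6, with 11.9% of the isolated peaks found.

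Whether an isolated peak was found went with its score and width, but among the narrowest peaks few were found at any score. Members found in both replicates had a median score of 40.5 (quartiles 25.1 and 73.5) and a median width of 1544 bp. The 131 found in replicate 2 only had 14.1 (10.3 and 19.5) and 570 bp. The 13 found in replicate 1 only had 11.7 (7.31 and 14.8) and 349 bp. The 526 in neither had 5.42 (3.63 and 8.22) and 241.5 bp, close to the 5.11 and 254 bp of the 4171 other peaks in neither. The class found in both stood highest in score and width, and its score quartiles did not overlap those of the other classes. The single points of the classes overlap in the plot of score against width. Found members scored 3.31 times the median of unfound ones, against 1.95 times among the other peaks.

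**Figure D2:**
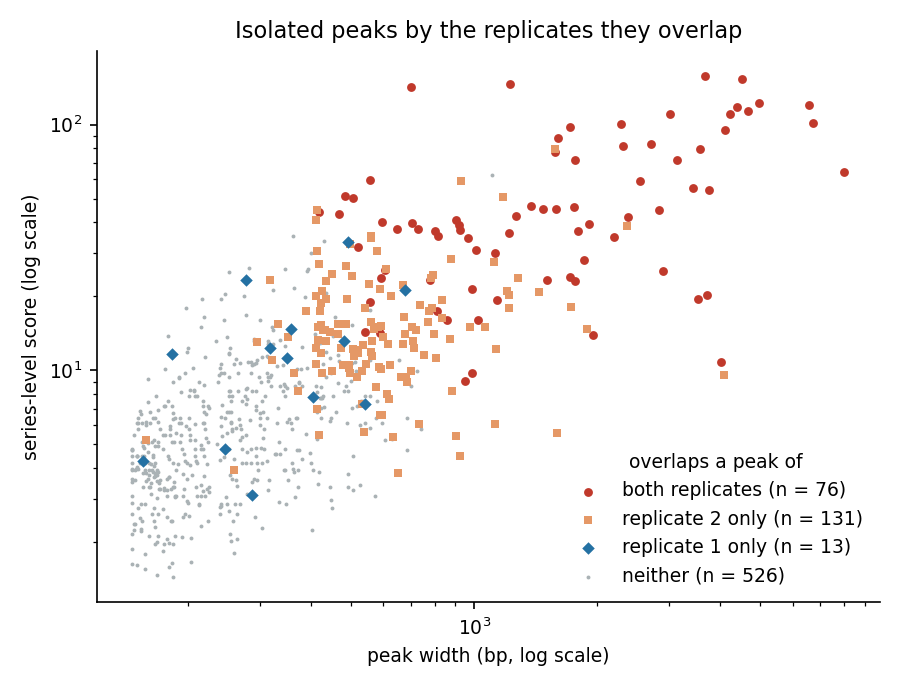
Series-level score against peak width in bp, both on log axes, for each of the 746 isolated peaks, with colour and shape giving the replicate lists it overlaps. The 76 found in both replicates lie at the upper right, with a median of 1544 bp, the 131 found in replicate 2 only lie between, and the 526 in neither fill the lower left, with a median of 241.5 bp.

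At equal score, isolated peaks were found less often than others in the lower deciles of the list and about as often in the top one. In the lowest score decile 0 of 87 isolated peaks were found (Wilson interval 0 to 4.23%; by the limit of 3 counts, a count of 0 allows a share of up to 3.45%), against 56.8% of 1864 other peaks. In the sixth decile, scores 8.10 to 10.4, 19 of 82 were found, 23.2% (Wilson interval 15.4 to 33.4), against 77.8% (75.7 to 79.7). In the eighth decile 43 of 60 were found, 71.7% (59.2 to 81.5), against 89.8% (88.3 to 91.1). In the top decile 59 of 61 were found, 96.7% (88.8 to 99.1), against 97.9% (97.1 to 98.5), and the intervals overlap. Over the lower 5 deciles together, 22 of 411 isolated peaks were found, 5.35% (3.56 to 7.97), against 63.8% (62.8 to 64.8). Weighting the other peaks to the isolated peaks' score deciles left a difference of -44.9 points, and weighting them to the width deciles left -41.7.

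**Figure D3:**
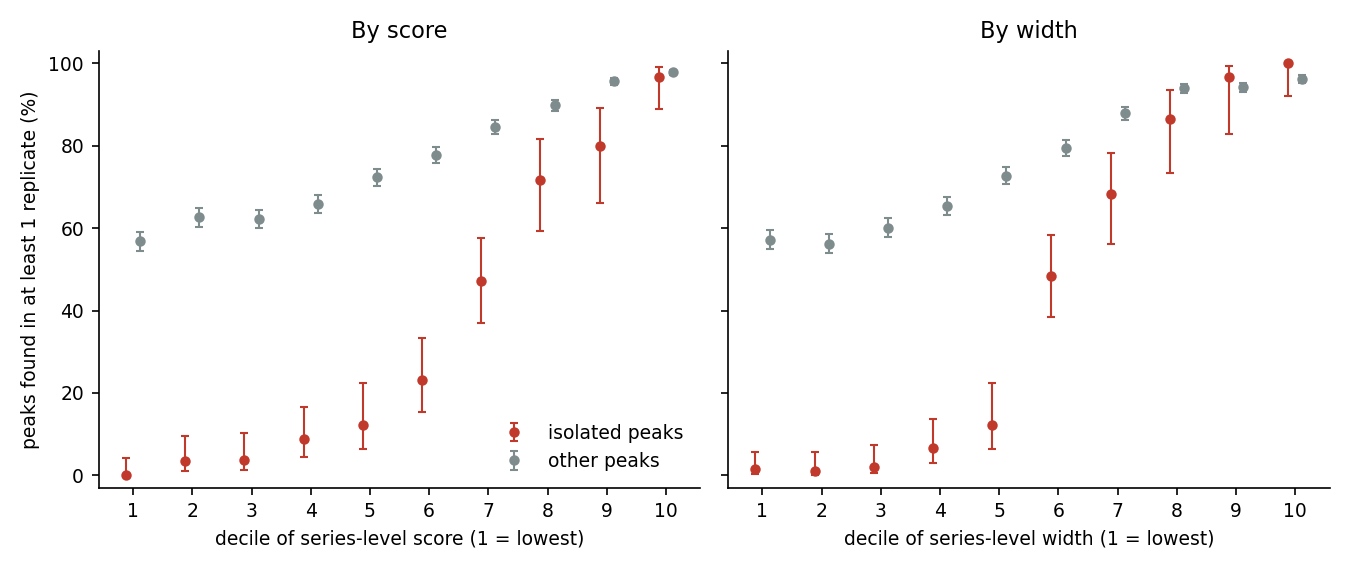
Percent of isolated and other peaks found in at least 1 replicate, by decile of series-level score (left) and width (right), with 95% Wilson intervals. Isolated peaks start at 0% in the lowest score decile, against 56.8% of the others, and reach 96.7% in the highest, against 97.9%.

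The company a peak kept inside the replicate peaks differed between the sets. Each of the 220 found isolated peaks was the sole series-level peak of the replicate peak it overlapped. Of the 13601 other peaks that were found, 94.4% shared a replicate peak with at least 1 more series-level peak, and 71.1% with a higher scoring one. In the lowest score decile, 98.1% of the 1058 other peaks found had a higher scoring companion in the same replicate peak. Counted by sole occupancy of a replicate peak, the order of the sets turned: 29.5% of isolated peaks were such sole peaks, against 6.35% of the others. In the top decile it was 96.7% against 19.2%. The gap rule itself makes sole occupancy likely for isolated peaks, so these values are a description.

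Joined at gaps under 5000 bp, the list formed 3136 groups, of which the isolated peaks made up 746, or 23.8%. This grouping was chosen after the values were seen. The share found grew with the number of peaks in a group. It was 29.5% for isolated peaks, 64.4% (59.8 to 68.7) for the 441 groups of 2 peaks, 89.8% (87.4 to 91.8) for the 737 groups of 3 to 5 and 98.1% for the 531 groups of over 10. The median score of the strongest peak of a group went with it: 7.14, 13.2, 24.8 and 52.0 in the same order. So did the median span: 302, 1860, 4828 and 21329 bp. Among groups with a top score of 40 or more, isolated peaks were found at 97.8% (88.4 to 99.6) of 45 and groups of at least 2 peaks at 99.5% (98.8 to 99.8) of 937. With a top score from 10 to below 20 the shares were 55.3% (47.3 to 63.1) of 150 isolated peaks and 86.8% (83.3 to 89.6) of 446 groups.

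Beyond the limit, the share found differed little with distance, and the intervals overlap. Peaks with a smaller gap of 5000 to below 10000 bp were found at 28.6% (24.4 to 33.2, n = 409), those at 10000 to below 20000 bp at 30.2% (24.5 to 36.7, n = 215) and those at 20000 bp or more at 31.1% (23.6 to 39.8, n = 122). Just below the limit, peaks with a smaller gap of 2000 to below 5000 bp were found at 30.4% (27.6 to 33.3, n = 968). The steep part lay at short gaps: 35.7% (33.2 to 38.2) at 1000 to below 2000 bp, 66.8% (64.9 to 68.6) at 500 to below 1000 bp and 86.4% (85.8 to 87.0) under 500 bp. Median scores in the 3 isolated classes were 6.92, 7.49 and 7.86, well inside one another's quartiles. The values of the isolated peaks were thus shared by peaks with neighbours at 2000 to 5000 bp.

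**Figure D4:**
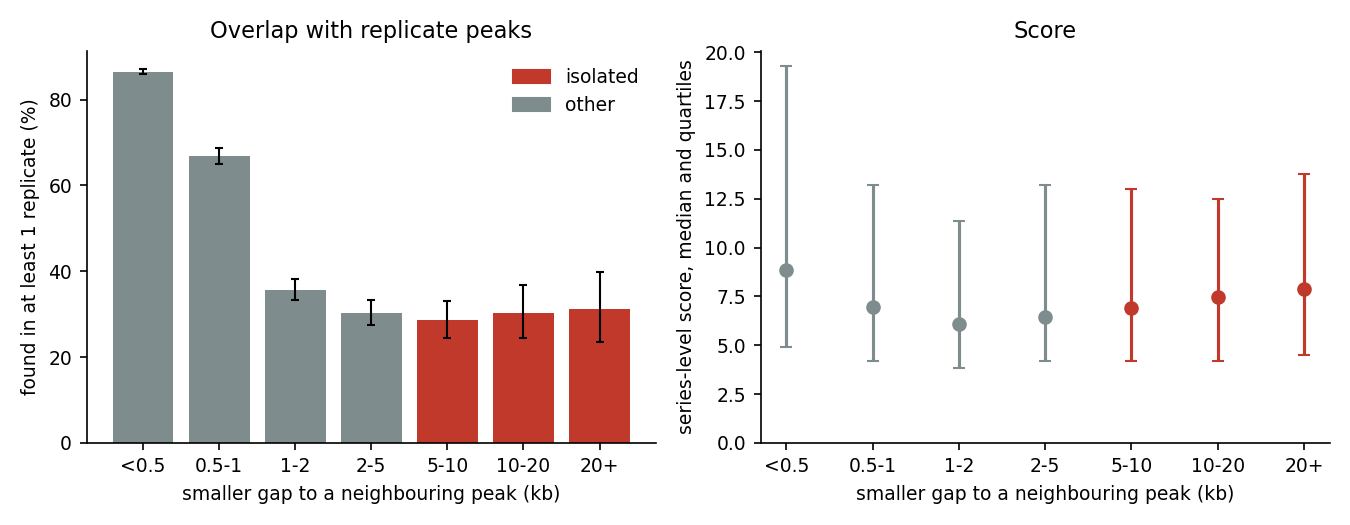
Percent of peaks found in at least 1 replicate with 95% Wilson intervals (left) and median series-level score with quartiles (right), by the smaller gap to a neighbouring peak in kb, with isolated peaks in red and other peaks in grey. The share found falls with the gap to 30.4% at 2 to 5 kb and stays between 28.6% and 31.1% in the 3 isolated classes.

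The replicate peaks over isolated peaks were narrower and lower in their own lists than those that held other series-level peaks only. In replicate 1 the 89 such peaks had a median width of 2367 bp, against 3342 bp for the 2577 that held other series-level peaks only, and their median score percentile was 34.4 against 50.5. In replicate 2 the 207 had 1820 bp, against 3464 bp for 3610, and the percentiles were 27.2 and 51.3. Replicate peaks with exactly 1 other series-level peak lay closer, and their median width was the smaller one in both replicates. Those had 2064 bp and percentile 38.2 in replicate 1 and 1725 bp and percentile 27.5 in replicate 2. The spread was wide: 22 of the 89 and 34 of the 207 were in the top score quartile of their list. Of those with other series-level peaks only, 646 of 2577 and 921 of 3610 were. Of those with exactly 1 other series-level peak, 117 of 659 and 79 of 698 were. Most replicate peaks over isolated peaks were remote in their own list as well. Under the same 5000 bp rule 84 of the 89 (94.4%) and 188 of the 207 (90.8%) were isolated there, against 42.7% and 34.7% of the replicate peaks with other series-level peaks only. Since nearly every replicate peak holds a series-level peak, the gap rule largely fixes this, and nothing is read from it.

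Isolated peaks sat near the middle of the broader replicate peaks. All 207 found in replicate 2 lay wholly inside the replicate peak, as did 80 of the 89 in replicate 1 (89.9%). Nearly the same held for the other peaks found, with 98.8% wholly inside in replicate 2 and 85.5% in replicate 1. The replicate peak was the wider one in 207 of 207 pairs in replicate 2 and in 86 of 89 in replicate 1, with median width ratios of 2.33 (quartiles 1.76 and 3.13) and 1.79 (1.30 and 2.46). The midpoints lay within 200 bp of each other in 170 pairs (82.1%) in replicate 2 and 65 (73.0%) in replicate 1. Series-level and replicate scores had a Spearman rho of 0.69 over the 207 pairs and 0.66 over the 89. Between the replicates, rho was 0.73 over the 76 peaks found in both. These points may share libraries, so the values describe the lists.

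The replicates agreed about isolated peaks in 1 direction more than in the other. Of the 89 found in replicate 1, 85.4% (76.6 to 91.3) were also in replicate 2, close to 84.3% for the other peaks. Of the 207 found in replicate 2, 36.7% (30.4 to 43.5) were also in replicate 1, against 48.7% (47.8 to 49.5). Those in replicate 2 only overlapped weak peaks there, with a median percentile of 15.6 (quartiles 6.85 and 31.4), against 59.7 (40.4 and 86.5) for those in both. The 13 in replicate 1 only also overlapped weak peaks of that list, at a median percentile of 15.4. The replicate 2 list is longer, with 3818 peaks against 2672, and read depth is unknown for both.

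The strongest isolated peaks were broad and present in both replicates. The 10 with the highest series-level scores lay on II, III, IV, V and X and were all found in both. Being found was usual at high scores in either set. In the top score decile of the list, 82.5% of the other peaks were found in replicate 1 and 92.2% in replicate 2. For the isolated peaks of that decile the shares were 83.6% and 96.7%. The first, on III at 12684412 to 12688077, spanned 3666 bp, scored 158.0 and had free gaps of 13822 and 5866 bp. It overlapped peaks with scores of 1706 in replicate 1 and 3100 in replicate 2. The second, on IV at 6645479 to 6649990, scored 153.6, with 2973 and 3100 in the replicates. Many replicate peaks tie at a score of 3100, 101 in replicate 1 and 368 in replicate 2, with 9 and 25 peaks above it. A score of 3100 or more was reached over 8 isolated peaks in replicate 1 and 14 in replicate 2, 6 of them in both. A peak on II at 12943950 to 12945172 was narrower, 1223 bp, and scored 146.9, with 1871 and 1298 in the replicates.

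The fourth was unlike the rest. It lay on III at 235080 to 235778, was 699 bp wide and scored 142.8, at percentile 99.8 of the series-level list. Its replicate 1 peak scored 83.6, at percentile 18.6 of that list, and its replicate 2 peak 909, at percentile 69.2. The ninth, on III at 6533033 to 6537249, was also uneven, with a score of 246.9 in replicate 1 (percentile 54.1) and 3100 in replicate 2. In the other 8 the replicate 1 percentile was between 81.6 and 97.8. The remaining 5 of the 10 lay on V at 723096 to 728054, on II at 11756057 to 11762638, on X at 5995215 to 5999614 and on IV at 7485148 to 7489817 and 14032335 to 14035341, with series-level scores between 110.45 and 122.5.

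The 3 widest isolated peaks were among the 6 at 3100 in both replicates. The widest, on IV at 8329416 to 8337440, spanned 8025 bp with gaps of 21389 and 25980 bp and scored 64.0. It overlapped replicate peaks of 9022 and 8886 bp. The next were on X at 6616360 to 6623087, 6728 bp and a score of 101.4, and on II at 11756057 to 11762638, 6582 bp and a score of 119.9. Ranked by mean percentile in the replicates, all 6 tied at 96.2, which follows from their tied scores, and the next by width were the peaks on V at 723096 to 728054 and on IV at 7485148 to 7489817.

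Of the 5 most remote isolated peaks, 3 were narrower and scored lower than the isolated medians of 302 bp and 7.14. Remote members as a class were not smaller. The 122 with a smaller gap of 20000 bp or more had medians of 312.5 bp and 7.86. The peak with the largest smaller gap, on V at 2423414 to 2423753, was 340 bp wide, scored 8.27 and had 141540 bp free before it and 107654 bp after it. It was in neither replicate, and the nearest replicate peak was 141021 bp away. The second, on V at 639219 to 640662, was 1444 bp wide and scored 20.84, with gaps of 104758 and 82433 bp, and overlapped a replicate 2 peak at percentile 53.3. The other 3, on X at 1609383 to 1609594, on II at 12423729 to 12423894 and on V at 3334530 to 3334682, were 212, 166 and 153 bp wide and scored 2.83, 2.30 and 6.67. None of these 3 was found in a replicate. All 5 lay outside the chromosome centres, as did 482 of all 746 isolated peaks and 11124 of the 17772 others.

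A few isolated peaks scored high with no replicate peak over them. The highest of the 526, on III at 8864654 to 8865758, was 1105 bp wide and scored 62.7, at percentile 96.8 of the list, and the nearest replicate peak was 5853 bp away. It was followed by peaks on X at 3035962 to 3036321 with a score of 35.2 and at 2328899 to 2329327 with 33.8, on II at 10339294 to 10339693 with 30.1 and on V at 155417 to 155697 with 26.0. These 4 were 281 to 429 bp wide. Of the 61 isolated peaks in the top score decile, 51 were in both replicates, 8 in replicate 2 only and 2 in neither. At least 1 replicate held 96.7% of the isolated and 97.9% of the other peaks of that decile. Among those other peaks, 82.5% were in replicate 1 and 92.2% in replicate 2. Over all 526 unfound members the nearest replicate peak was a median of 12560 bp away (quartiles 7459 and 21564 bp), against 2486 bp (949 and 6541 bp) for the 4171 unfound others. The smallest such distance was 2796 bp. Since all but 6 replicate 1 peaks and 1 replicate 2 peak held a series-level peak, the gap rule keeps replicate peaks away from these members.

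Isolated peaks were spread evenly over the chromosomes per Mb, while the whole list was not. Their density lay between 6.41 per Mb on IV (exact Poisson interval 5.28 to 7.72) and 7.90 on I (6.55 to 9.46), with a mean of 7.46 ± 0.588 (SD, n = 6 chromosomes), and all intervals overlap. The density of all series-level peaks lay between 120.2 per Mb on V and 257.6 on III. The share of isolated peaks therefore ran the other way: it was 6.53% on V (Wilson interval 5.63 to 7.57) and 4.90% on X (4.13 to 5.81), against 2.99% on III (2.48 to 3.60) and 3.13% on I (2.62 to 3.74). Chromosome II had 3.98% and IV 3.61%. V, the longest chromosome at 20.9 of 100.2 Mb, held 164 of the 746, or 7.85 per Mb (6.69 to 9.14). X had 126, or 7.11 per Mb (5.92 to 8.47), against 7.52 (6.94 to 8.13) on the 5 autosomes. The gap rule ties isolation to local density, so no test was made.

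**Figure D5:**
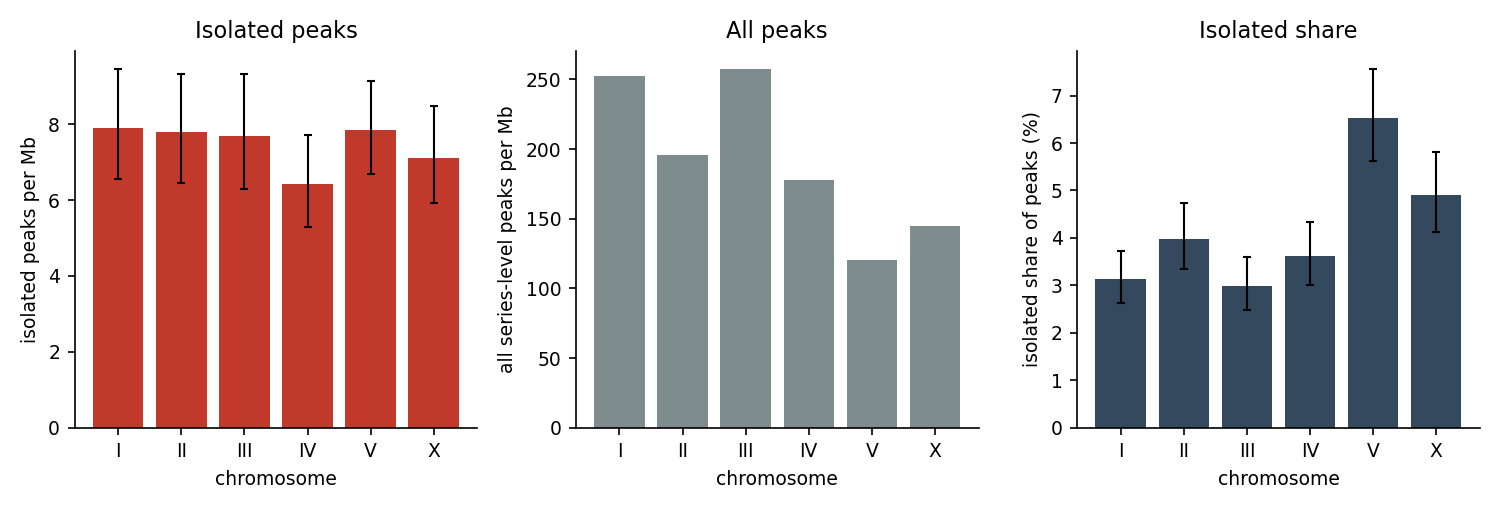
Isolated peaks per Mb with exact Poisson intervals (left), all series-level peaks per Mb (middle) and the isolated share of peaks with Wilson intervals (right), by chromosome. Isolated density stays between 6.41 and 7.90 per Mb, the density of the list runs between 120.2 and 257.6, and the isolated share is highest on V at 6.53%.

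The isolated peaks of III stood lowest among the chromosomes, with a share found whose interval overlaps those of the other 5. Chromosome III had the lowest median score, 5.44, the lowest median width, 257 bp, and the lowest share found, 21.7% (Wilson interval 14.9 to 30.5). Chromosome II had the highest median score, 8.66, and the highest share found, 36.1% (28.1 to 45.1). X had the widest isolated peaks, with a median of 345 bp, and 30.2% (22.8 to 38.7) were found, all of them in replicate 2. On III the other peaks did not stand lower: their median score was 8.22 and 77.4% of them were found.

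Isolated peaks were nearly as dense on chromosome arms as in centres. The centre was taken as the part from 33.3% to 66.7% of a chromosome. Centres held 264 isolated peaks, 7.91 per Mb, and arms 482, 7.22 per Mb, a ratio of 1.10 with an exact interval of 0.939 to 1.28 that includes 1. For the other peaks the ratio was 1.20 (1.16 to 1.23). By chromosome the isolated ratio lay between 0.904 (0.580 to 1.38) on III and 1.39 (0.935 to 2.06) on IV, and all 6 intervals include 1. With a gap limit of 10000 bp the ratio over all chromosomes was 0.880. On the arms of V the isolated share of peaks was 6.82% (5.64 to 8.22), and in its centre 6.13% (4.83 to 7.75).

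Isolated peaks in centres scored higher and were found more often than those on arms. In centres their median score was 8.19 and their median width 346.5 bp, against 6.71 and 286.5 bp on arms. In centres 35.6% (30.1 to 41.6) were found, against 26.1% (22.4 to 30.2) on arms, a difference of 9.46 points (2.58 to 16.5). The sign was the same on 6 of 6 chromosomes, but the interval of the difference excluded 0 on V only, where 27 of 64 were found in the centre and 23 of 100 on the arms. For the other peaks the difference was 6.28 points (5.02 to 7.52), and their median score was lower in centres, 7.86 against 8.22 on arms. Whether the difference itself differs between the sets was not tested.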

How the data were processed

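AMA-1 ChIP peak lists were analysed: 1 for each of 2 replicates and 1 for the series as a whole. The submitters' processing notes name BWA as a tool and ce10 as the build. Peaks were called with MACS for the replicates and MACS v2 for the series-level list, on WormBase WS220, per the file headers and source columns. The deposited score of each peak is the authors' value; what its scale, the thresholds and the control were is not given in the sources used here. Gaps, overlaps (at least 1 bp) and distances were computed with Python 3.11.15, numpy 2.4.6, pandas 2.3.3 and scipy 1.17.1, and the rules were checked on simulated lists. Deciles and percentiles are those of the list a peak belongs to. The last peak end in any of the 3 lists stood for the length of a chromosome, which gave 100.2 Mb in all. Shares have Wilson intervals, differences Newcombe intervals and ratios of densities exact conditional binomial intervals, at 95%; all cover counting error only. Read depth is unknown. No test was made. Named regions follow ranks by score, gap, width and replicate percentile. The members, ranks and classes were chosen with earlier results of these data known. Alternatives covered the gap limit, merging, score limits, the overlap rule, each replicate alone, the score and width mix, the centre and the chromosomes used. Genes and sequence features were not analysed, because the available gene table is of another build.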

Additional observations from a re-analysis of the deposited data

How the results depend on the processing

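Of 43 alternative values, 26 stayed close to the reported value (within its interval or spread or, for the number of peaks, within 1.5 times), 15 moved further and 2 changed direction. The number of isolated peaks, 746, was 1714 with a gap limit of 2000 bp, 337 with 10000 bp, 1168 after merging of peaks closer than 500 bp and 1058 for peaks at or above the median score. The share found in at least 1 replicate, 29.5%, was 49.7% after merging, 71.7% for peaks at or above the median score, 7.64% against replicate peaks at or above their own median score, and between 11.9% and 27.7% with a replicate left out. The difference from the other peaks, -47.0 points, stayed negative throughout: -15.5 after merging, -18.4 at or above the median score, -42.6 against the stronger replicate peaks, -41.7 with the width mix matched, -59.7 against groups joined at gaps under 5000 bp (chosen after the values were seen), and between -42.4 and -28.6 with a replicate left out. The score ratio, 0.880, became 1.04 after merging. The ratio of centres to arms, 1.10, became 0.880 at 10000 bp and 1.31 for peaks at or above the median score. Merging joins peaks before the rule and the score limit removes weak neighbours, so both change which peaks are members. The score limit also changes the score mix. Among the 746 isolated peaks, those in the upper 5 score deciles were found at 59.1% and those in the lower 5 at 5.35%. The cause was not tested for any of the moves. Read depth is unknown, so what it limits cannot be said. No paired analysis was possible because the ChIP samples form a single group and no peak list of an input was analysed here.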

Other observations

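Along the width of isolated peaks, the share found in replicate 2 was not smooth, with a step near 400 bp. The classes were chosen after the plot of score against width was seen. Of isolated peaks 350 to 399 bp wide, 4 of 36 were found in replicate 2, 11.1% (Wilson interval 4.41 to 25.3), and of those 400 to 449 bp wide, 25 of 57, 43.9% (31.8 to 56.7). The next classes, 450 to 499 and 500 to 549 bp, gave 45.2% (29.2 to 62.2) and 46.9% (30.9 to 63.6). The share was higher again at 550 to 599 bp, 74.2% (56.8 to 86.3), and at 600 to 649 bp, 9 of 12 peaks (46.8 to 91.1). Both intervals overlap that at 500 to 549 bp. The other peaks changed more gradually, with 67.9% (65.0 to 70.6) at 350 to 399 bp, 72.4% (69.4 to 75.2) at 400 to 449 bp and 82.8% (79.7 to 85.6) at 550 to 599 bp. The class sizes also differed in order. Isolated peaks numbered 36 at 350 to 399 bp and 57 at 400 to 449 bp, while the other peaks numbered 1095 and 931. Median scores of the isolated classes were 8.32 and 10.6. In replicate 1 the same isolated classes gave 1 of 36 and 2 of 57.

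Isolated peaks were not gathered in a few places. Each of the 97 full windows of 1 Mb held between 2 and 18 of them, with a median of 7. The window with 18 was on III from 10000001 to 11000000, where 245 series-level peaks lay in all and 5 of the 18 were found in a replicate. Across windows the number of isolated peaks and of all peaks were nearly unrelated (Spearman rho 0.06). Neighbouring windows are not independent, so this describes the list only.

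Under the same gap rule the replicate lists had 1189 isolated peaks of 2672 in replicate 1, 44.5%, and 1442 of 3818 in replicate 2, 37.8%, against 4.03% of the series-level list. The replicate lists are shorter and their peaks wider.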
